A study of Mus musculus with 3 samples.

Results

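Nuclei selected by endocardial genes were described from single-nucleus RNA sequencing of mouse heart tissue, collected when 2 weeks had passed since surgery. The selection rule was met by 508 of 20733 kept nuclei, out of 23823 deposited barcodes, and 243 of the 508 lay in a cluster that can be called endocardial-like. Kept nuclei had 300 or more genes detected and no more than 10% of UMIs from mitochondrial genes, where a UMI (unique molecular identifier) stands for 1 captured RNA molecule. Members were chosen by the UMI counts of named genes in each nucleus. A member had at least 2 UMIs over Npr3, Cgnl1, Tmem108 and Cytl1, and at least 1 UMI over the endothelial genes Pecam1, Cdh5, Vwf and Egfl7. It had 0 UMIs over Prox1, Msln and Muc16, at most 1 UMI over Pdgfra, Dcn, Csf1r and Ptprc, and less than 3% of its UMIs from the cardiomyocyte transcripts Ttn, Ryr2, Myh6 and Mhrt. Values of those genes chose the nuclei and are given below as a description only.

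The 3 groups were myocardial infarction with dapagliflozin (MI-DAPA), myocardial infarction with NS (MI-NS) and sham surgery with NS (Sham-NS). The labels do not expand NS and give no strain, sex, age, dose, hour of collection or number of hearts behind a library. Each group was 1 library, so no difference between groups has a replicate check and none was tested. Brackets hold 95% intervals for counting error, which leave out how nuclei, hearts or tissue samples differ. Dapagliflozin inhibits SGLT2, the sodium-glucose cotransporter of the kidney tubule. The comparison of MI-DAPA with MI-NS sets it beside NS in infarcted hearts.

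The endocardium is the endothelial sheet that lines the chambers of the heart and faces the blood inside them. It sends signals to the muscle beneath it, among them neuregulin-1 (Nrg1), which acts on ErbB receptors of cardiomyocytes, and endothelin-1 (Edn1), a peptide that constricts vessels and acts on heart muscle and fibroblasts. Npr3, the clearance receptor for natriuretic peptides, and the haemostasis protein Vwf are widely used to mark endocardial against capillary endothelium. Cgnl1 encodes paracingulin, a protein of cell junctions that other endothelial and epithelial cells also make.

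The libraries differed in depth and in their mitochondrial and muscle RNA. The MI-DAPA, MI-NS and Sham-NS libraries held 8871086, 10113430 and 13873275 UMIs, and 5372, 7065 and 8296 nuclei were kept. Members numbered 91 in MI-DAPA, 129 in MI-NS and 288 in Sham-NS, with 86320, 170105 and 332918 UMIs in sum and medians of 867, 1083 and 945 UMIs per nucleus. The median mitochondrial share of their UMIs was 2.87%, 1.36% and 3.65%. Between 13 and 20 barcode sequences were shared by each pair of libraries, and 1 MI-NS and 1 Sham-NS member had a barcode also seen in another library. Cardiomyocyte marker transcripts summed to 4669, 2616 and 4623 CPM (a gene's UMIs per 1e6 UMIs of the same nuclei) in members and to 5569, 2913 and 6447 CPM in capillary nuclei. RNA of muscle genes was thus present in both sets and lowest in MI-NS; its part in the results was not tested.

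The label was checked against genes that the rule did not use, and the data bore it out in part. Cgnl1 carried most of the selection: it was present in 494 of the 508 members, it made up 81.8% of the UMIs over Npr3, Cgnl1, Tmem108 and Cytl1, and 313 members (61.6%) qualified on Cgnl1 alone. Npr3 was found in 148 members, 21 of 91 in MI-DAPA, 24 of 129 in MI-NS and 103 of 288 in Sham-NS. Vwf was found in 29, 45 and 137 members of the same libraries. When all kept nuclei were clustered with the rule genes left out of the clustering, 243 members (47.8%) fell in a single cluster of 418 nuclei, led by Nrg1, Smoc1, Bmx, Npr3, Plagl1, Vwf, Tuft1, Tmem108, H19 and Amigo2. This Nrg1-led cluster, which can be called endocardial-like, held 44 of the MI-DAPA members, 56 of the MI-NS members and 143 of the Sham-NS members.

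The other 265 members were spread over clusters with other leading genes. A capillary-like cluster led by Timp4, with Flt1 and Car4, held 57 of them, and a cluster led by Prg4, Clec3b and Scara5 held 54. The pair of clusters with Kcnj8, Vtn and Colec11, genes of pericytes, held 44 and 24, and a further cluster led by Prnd and Kit, with Cldn5, held 33. Pericyte markers summed to 1822, 1406 and 1599 CPM in MI-DAPA, MI-NS and Sham-NS members outside the Nrg1-led cluster, against 126, 436 and 268 CPM in members inside it. Lymphatic markers summed to 193, 415 and 164 CPM outside and 50.4, 62.4 and 102 CPM inside. Fibroblast markers summed to 2658, 2888 and 2312 CPM outside and 605, 3305 and 522 CPM inside. Of the 47 MI-DAPA members outside it, 0 had a UMI of Nrg1, Smoc1, Bmx or Bmp6. The other libraries were not at 0. Of 145 Sham-NS members outside it, 10, 4, 23 and 5 had a UMI of these genes in that order. MI-NS members outside it held 25 UMIs of Nrg1, or 236 CPM. The 508 are therefore called members, by the rule, and not endocardium, and values in members inside the Nrg1-led cluster are given beside many of the results.

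The share of nuclei inside the cluster depended on how many UMIs of the 4 genes a nucleus carried. Of nuclei that met every other condition, 51 of 196 with 2 UMIs, just inside the threshold, lay in the cluster (26.0%), and 65 of 762 with 1 UMI, just outside it, did so (8.53%). The share was 42.6% at 3 UMIs and 69.7% at 4 or more. In the cluster, 175 nuclei were not members, 32 in MI-DAPA, 67 in MI-NS and 76 in Sham-NS. They are other nuclei of the same libraries, and their values are set beside those of members below. Cardiomyocyte RNA was higher in them, with Ttn at 3011, 6843 and 12250 CPM in MI-DAPA, MI-NS and Sham-NS against 1170, 705 and 1069 CPM in members. Ttn counts toward the muscle limit of the rule, so this difference follows in part from how members were chosen. The cluster itself was drawn partly from Nrg1 and Smoc1, so levels of those 2 genes within it are a description.

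Members made up a smaller share of kept nuclei in both infarction libraries than in Sham-NS. The share was 1.69% (1.37 to 2.08, Clopper-Pearson) in MI-DAPA, 1.83% (1.53 to 2.17) in MI-NS and, for Sham-NS, 3.47% (3.09 to 3.89). The log2 ratio of shares was -0.93 (-1.22 to -0.63) for MI-NS against Sham-NS and -0.11 (-0.49 to 0.28) for MI-DAPA against MI-NS. Members inside the Nrg1-led cluster made up 0.819%, 0.793% and 1.72% of MI-DAPA, MI-NS and Sham-NS nuclei. All nuclei of that cluster, members or not, made up 1.41%, 1.74% and 2.64%, a log2 ratio of -0.60 (-0.92 to -0.29) for MI-NS against Sham-NS. Capillary nuclei made up 5.51%, 4.40% and 5.87%, a log2 ratio of -0.42 (-0.62 to -0.22) for MI-NS against Sham-NS. The rule reads Npr3 and Cgnl1, so a share can move with the level of these genes as well as with the number of nuclei, and the 2 cannot be told apart here. With each nucleus thinned to 500 UMIs before the rule was applied, 48, 67 and 164 nuclei of MI-DAPA, MI-NS and Sham-NS qualified.

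**Figure D1:**
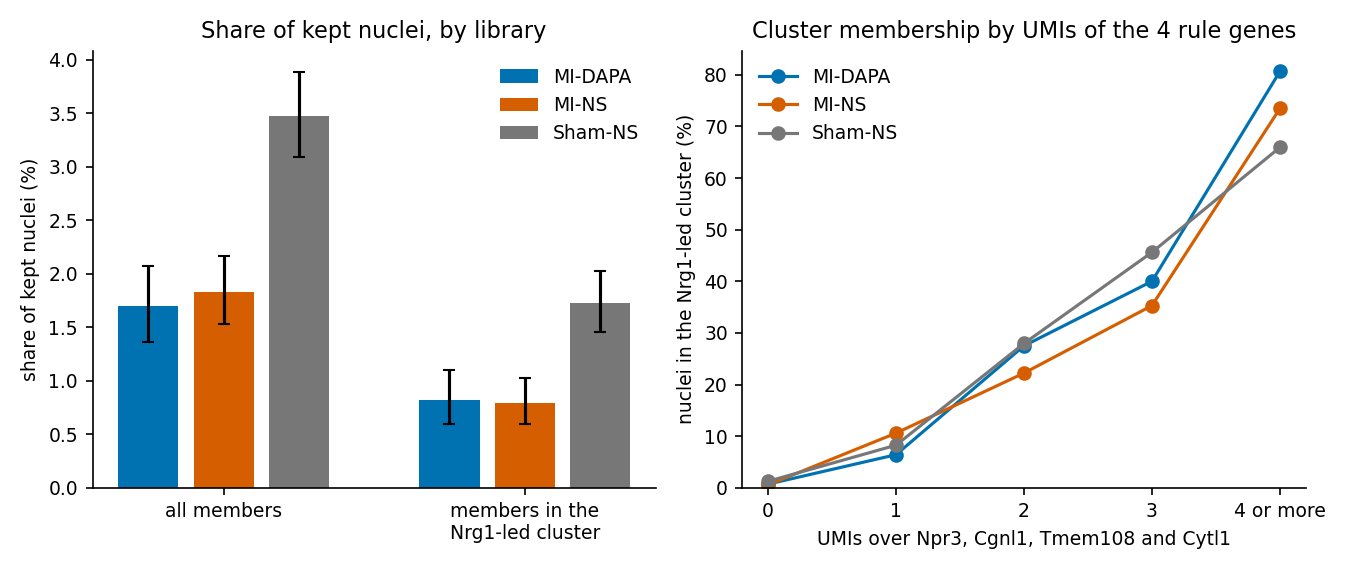
Left, share of kept nuclei (%) that were members or members in the Nrg1-led cluster, with 95% Clopper-Pearson intervals, in MI-DAPA, MI-NS and Sham-NS: members made up 1.69%, 1.83% and 3.47%. Right, percent of nuclei in the Nrg1-led cluster by UMIs over the 4 rule genes, per library: over all libraries it was 8.53% at 1 UMI, just under the threshold, and 26.0% at 2 UMIs.

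Genes outside the rule set members apart from capillary nuclei in the same way in every library. Capillary nuclei were those with 0 UMIs of the 4 endocardial genes and at least 2 UMIs over Rgcc, Car4, Gpihbp1, Btnl9 and Cd300lg, and they numbered 1094. Of 4058 genes measured, 93 were at least 2-fold higher in members in each of the 3 libraries (2.29%) and 29 were at least 2-fold lower in each (0.715%). Btnl9, Gpihbp1, Cd300lg and Car4 are among the genes that were lower. They were used to choose the capillary nuclei, so that part of the lower count was fixed by the definition. Ranked by the smallest of their 3 ratios, the first 15 were Nrg1, Tuft1, Bmx, Smoc1, Hand2, Dpp4, Sall1, Nipal2, Meis2, Plagl1, Ephx2, Frrs1, Hmcn1, Megf6 and Wnk4.

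Hmcn1, which encodes the matrix protein hemicentin-1, stood at 3186, 1717 and 1877 CPM in MI-DAPA, MI-NS and Sham-NS members and 244, 168 and 239 CPM in capillary nuclei. Its log2 ratio of members over capillary nuclei was 3.69 (3.28 to 4.15), 3.34 (2.92 to 3.81) and 2.97 (2.66 to 3.31). Bmx, a cytoplasmic tyrosine kinase of endothelial cells, stood at 487, 400 and 369 CPM in members against 13.3, 16.2 and 21.0 CPM in capillary nuclei. It was found in 38.6%, 44.6% and 28.7% of members inside the Nrg1-led cluster, and in 1.01%, 1.29% and 1.44% of capillary nuclei. Hand2, a transcription factor of heart development, had 8, 11 and 36 UMIs in members, or 92.7, 64.7 and 108 CPM, against 0, 3.24 and 0 CPM in capillary nuclei. Cardiomyocyte nuclei, those with at least 10% of UMIs from Ttn, Ryr2, Myh6 and Mhrt, had 52.2, 68.2 and 42.9 CPM of Hand2. Meis2 and Sall1 also encode transcription factors; Meis2 stood at 243, 441 and 192 CPM in members against 22.2, 35.6 and 13.1 CPM in capillary nuclei.

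Pkhd1l1, a large membrane protein, was likewise far above the capillary level, with 463, 229 and 574 CPM in MI-DAPA, MI-NS and Sham-NS members and 22.2, 38.8 and 28.9 CPM in capillary nuclei. It was not particular to members: 93 lymphatic nuclei, chosen by Prox1 and other lymphatic genes, had 713, 358 and 504 CPM from 20, 16 and 17 UMIs. The same lymphatic nuclei had 819, 381 and 771 CPM of Hmcn1, and cardiomyocyte nuclei had 770, 626 and 577 CPM of Hmcn1. Btnl9, a capillary gene used to define the capillary nuclei, stood lower in members, at 255, 429 and 249 CPM against 2502, 1952 and 2280 CPM. Kdr, the main receptor for VEGF, was not used in either definition, and stood at 440, 359 and 219 CPM in members against 1342, 848 and 664 CPM in capillary nuclei. Of other genes known from endocardium, the transcription factor Nfatc1 had 34.8, 35.3 and 18.0 CPM in members against 26.7, 29.1 and 18.4 CPM in capillary nuclei, and Hapln1 had 0 UMIs in members of each library.

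**Figure D2:**
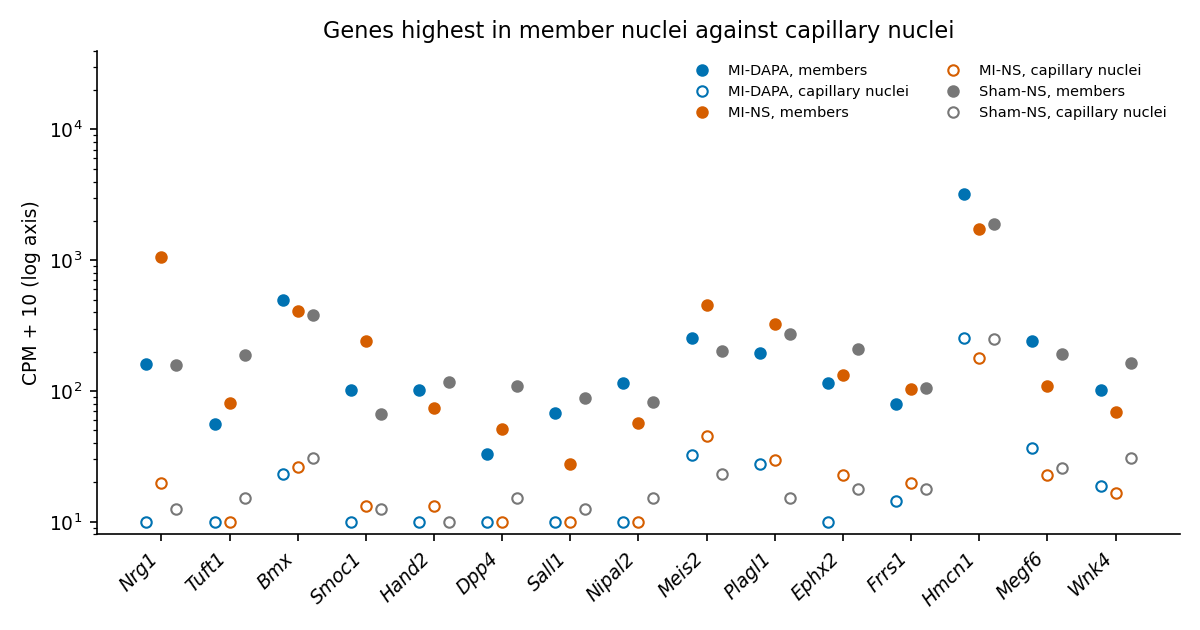
Level of 15 genes in member nuclei (filled) and capillary nuclei (open) of MI-DAPA, MI-NS and Sham-NS, in CPM with 10 added so that 0 can be drawn, on a log axis. For each of the 15 genes the 3 filled points lie above the 3 open points; Hmcn1, for one, has 3186, 1717 and 1877 CPM in members and 244, 168 and 239 CPM in capillary nuclei.

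Infarction was compared with sham surgery over 3596 genes with at least 30 UMIs in members of both libraries together. In MI-NS members 225 genes were at least 2-fold higher than in Sham-NS members (6.26%) and 204 were at least 2-fold lower (5.67%), 11.9% in either direction. The median log2 ratio over all 3596 genes was 0.0035, with 1823 higher and 1773 lower in MI-NS. Genes at least 2-fold higher included the signals Nrg1 and Edn1, 10 matrix genes and the arterial genes Gja4 and Sox17. Genes at least 2-fold lower included 5 of the clock, 6 glucocorticoid targets, the prostaglandin enzyme gene Ptgs1 and the anion transporter gene Slco1a4. Of 32 paracrine signal genes 13 were measurable, 9 of them higher in MI-NS and 3 at least 2-fold higher, with a median of 0.47 in members and 0.02 in capillary nuclei.

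Nrg1 (chr8:31814551-32884029, minus strand, GRCm38) had the highest log2 ratio of the 16 measurable endocardial genes outside the rule. Members had 151 CPM in MI-DAPA, 1046 CPM in MI-NS and 147 CPM in Sham-NS, from 13, 178 and 49 UMIs. The MI-NS library stood alone, with MI-DAPA and Sham-NS within each other's intervals (80.2 to 258 CPM and 109 to 195 CPM). The log2 ratio was 2.82 (2.37 to 3.32) for MI-NS against Sham-NS. Nrg1 UMIs were found in 11 of 91, 43 of 129 and 37 of 288 members (12.1%, 33.3% and 12.8%), and the largest number in a single nucleus was 2, 18 and 4. With each nucleus thinned to 500 UMIs the counts were 10, 35 and 18 nuclei, or 27.1% in MI-NS and 6.25% in Sham-NS. In capillary nuclei Nrg1 was found in 0 of 296, 3 of 311 and 1 of 487, at median depths of 680, 772 and 681 UMIs.

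Inside the Nrg1-led cluster MI-NS was also the highest library, both in members and in the other nuclei. Members inside it had 328, 2385 and 261 CPM of Nrg1, a log2 ratio of 3.18 (2.66 to 3.76) for MI-NS against Sham-NS. Nuclei of the cluster that were not members had 567, 1589 and 191 CPM, a log2 ratio of 3.01 (2.26 to 3.97). In those nuclei MI-DAPA stood well above Sham-NS, unlike in members. In MI-NS, members held 39.4% of the library's Nrg1 UMIs and the whole cluster held 63.5%. The cluster held 65.9% of them in MI-DAPA and 55.6% in Sham-NS.

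Edn1 (chr13:42301476-42307990, plus strand, GRCm38), the endothelin-1 precursor, had 162 CPM in MI-DAPA members, 306 CPM in MI-NS members and 48.1 CPM in Sham-NS members, from 14, 52 and 16 UMIs. The 14 MI-DAPA UMIs came from 7 nuclei, and 1 nucleus held 7 of them. For MI-NS against Sham-NS the log2 ratio was 2.64 (1.84 to 3.58), and 2.33 (1.38 to 3.41) in members inside the Nrg1-led cluster. Capillary nuclei had 44.4, 25.9 and 10.5 CPM, below the members of the same library each time. Ece1, the enzyme that cleaves the precursor to active endothelin, stood at 127, 241 and 216 CPM, a log2 ratio of 0.16 (-0.43 to 0.73) for MI-NS against Sham-NS.

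The promoter window of Edn1 is shown because Edn1 is a secreted signal of members at least 2-fold higher in MI-NS, and RefSeq holds its window. It covers chr13:42301226-42301525 on the plus strand of GRCm38.p6, from 250 bases before the annotated start to 50 after it. Capitals mark matches to a pair of motifs that were searched on both strands, chosen after the window had been read, and do not overlap. The first motif is AGATAA, of the kind bound by zinc finger factors of heart and endothelium, and it matches here on the reverse strand. The second motif resembles the site of the AP-1 factors and is spelled TGACTAA.
Edn1: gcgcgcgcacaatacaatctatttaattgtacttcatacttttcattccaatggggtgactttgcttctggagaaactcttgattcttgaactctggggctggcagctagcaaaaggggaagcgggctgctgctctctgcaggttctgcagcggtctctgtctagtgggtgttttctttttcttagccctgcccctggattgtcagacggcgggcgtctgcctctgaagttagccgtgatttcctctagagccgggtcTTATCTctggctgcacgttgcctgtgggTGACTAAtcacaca
Of 32851 windows of the same length, 11.2% hold AGATAA and 2.35% hold TGACTAA. The matches begin at bases 259 and 287 of the window, after the annotated start, and describe letters only.

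Other regulators and secreted factors of members were higher in MI-NS as well. Smoc1, a secreted calcium-binding matrix protein that modulates BMP signalling, had 8, 39 and 19 UMIs in MI-DAPA, MI-NS and Sham-NS members, or 92.7, 229 and 57.1 CPM. Its log2 ratio for MI-NS against Sham-NS was 1.99 (1.18 to 2.88), and 2.34 (1.46 to 3.34) in members inside the Nrg1-led cluster. Gja4, the gap junction protein connexin 37 of arterial endothelium, had 6, 25 and 7 UMIs and a log2 ratio of 2.73 (1.56 to 4.26), and 3.25 (1.60 to 5.86) in members inside the Nrg1-led cluster. Nuak1, a kinase related to AMPK, had 0, 29 and 6 UMIs and a log2 ratio of 3.15 (1.95 to 4.80), and 3.43 (1.82 to 6.02) inside the cluster. Mcam, a cell adhesion molecule of endothelium and pericytes, had 13, 63 and 17 UMIs and a log2 ratio of 2.83 (2.07 to 3.72), and 3.74 (1.91 to 7.18) inside the cluster. Capillary nuclei shared the Mcam difference, at 304 CPM in MI-NS and 86.6 CPM in Sham-NS.

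Mecom and Meis2, both transcription factors, stood at 611 and 441 CPM in MI-NS members against 351 and 192 CPM in Sham-NS members. Their log2 ratios were 0.80 (0.40 to 1.19) and 1.20 (0.70 to 1.70). Bmp4, a ligand of the BMP family, had 26 UMIs in MI-NS members and 25 in Sham-NS members, a log2 ratio of 1.02 (0.18 to 1.88) once depth was taken into account. In members inside the Nrg1-led cluster the log2 ratio was 1.67 (0.64 to 2.78), and in members outside it the value was -0.18. Plvap, which forms the diaphragms of fenestrated endothelium, had 14, 19 and 12 UMIs in MI-DAPA, MI-NS and Sham-NS and a log2 ratio of 1.61 (0.51 to 2.81) for MI-NS against Sham-NS. Bmp6, a BMP family ligand, had 4, 14 and 20 UMIs and a log2 ratio of 0.47 (-0.64 to 1.51).

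Among endocardial genes outside the rule, 16 of 24 were measurable: 9 were higher in MI-NS, 3 of them at least 2-fold (Nrg1, Smoc1 and Plvap), and 1 was at least 2-fold lower (Pkhd1l1). Pkhd1l1 had 463, 229 and 574 CPM in MI-DAPA, MI-NS and Sham-NS members, a log2 ratio of -1.31 (-1.86 to -0.82) for MI-NS against Sham-NS. The list's median was 0.29 in members, 0.55 in members inside the Nrg1-led cluster and 0.44 in capillary nuclei. Several of its genes had few UMIs in capillary nuclei, such as Nrg1 with 3 in MI-NS and 1 in Sham-NS. Pan-endothelial genes had a median of -0.17 over 20 of 23, with 1 at least 2-fold higher, Sox17. Notch pathway genes had a median of 0.06 over 13 of 21, with 0 at least 2-fold different. The interferon response had a median of -0.0037 over 19 of 27, again with 0 at least 2-fold different.

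Basement membrane and matrix genes had a median log2 ratio of 0.85 in MI-NS against Sham-NS members, with 16 of 22 measurable genes higher, 10 at least 2-fold higher and 0 at least 2-fold lower. Ltbp2 was the highest, at 7.24. It is among the leading genes of a cluster with Comp and Thbs4, which held 1380 MI-NS nuclei and 1 MI-NS member. Vcan, also at least 2-fold higher, is among the leading genes of a cluster with Pi16. In members inside the Nrg1-led cluster the median was 1.10 over the same 22 genes, and 0.50 over those with at least 30 UMIs there. Col4a1 and Col4a2, the paired chains of basement membrane collagen IV, had 533 and 290 CPM in MI-DAPA, 435 and 376 CPM in MI-NS and 147 and 99.1 CPM in Sham-NS. Their log2 ratios for MI-NS against Sham-NS were 1.56 (1.02 to 2.11) and 1.91 (1.30 to 2.58). Eln, the elastic fibre protein elastin, had 626, 1117 and 487 CPM, a log2 ratio of 1.20 (0.89 to 1.51), and 1.46 (1.02 to 1.90) in members inside the Nrg1-led cluster. Sparc, a collagen-binding matrix protein, had 7, 40 and 11 UMIs, a log2 ratio of 2.79 (1.84 to 3.94). Outside that list, Col27a1, a fibrillar collagen chain, had 4, 38 and 10 UMIs, a log2 ratio of 2.84 (1.86 to 4.06).

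Matrix genes were higher in MI-NS capillary nuclei as well. Capillary nuclei had the same list median, 0.85, and Col4a1 at 783 CPM in MI-NS against 207 CPM in Sham-NS. Fibroblast markers summed to 1715, 3045 and 1571 CPM in MI-DAPA, MI-NS and Sham-NS members and to 1107, 3356 and 1175 CPM in capillary nuclei, and their part in the matrix result was not tested. Inside the Nrg1-led cluster the fibroblast sum was 605, 3305 and 522 CPM in MI-DAPA, MI-NS and Sham-NS members, with 2, 1 and 0 of the 10 markers at 0, so the cluster did not remove it from MI-NS. Fibronectin (Fn1) had 7, 101 and 31 UMIs in members, and 1 MI-NS nucleus held 23 of the 101. Thbs1, the matrix glycoprotein thrombospondin-1, had 4, 30 and 2 UMIs, with 18 MI-NS nuclei positive. Tnc, the matrix glycoprotein tenascin-C, had 3, 31 and 1 UMIs, of which 13 of the 31 in MI-NS came from 1 nucleus and 1 came from members inside the Nrg1-led cluster.

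Several of the highest MI-NS ratios belonged to members outside the Nrg1-led cluster. Slc7a10, an amino acid transporter of adipocytes, had 0, 41 and 0 UMIs in MI-DAPA, MI-NS and Sham-NS members, at least 26.7-fold higher in the MI-NS library against the Sham-NS one with a floor of 3 counts per library. Car3, a carbonic anhydrase abundant in fat, had 0, 37 and 0 UMIs, at least 24.1-fold higher. C4b, a complement component, and Plin4, a lipid droplet protein, had 69 and 44 UMIs in MI-NS members against 14 and 9 in Sham-NS members, log2 ratios of 3.23 (2.43 to 4.21) and 3.20 (2.20 to 4.48). Single MI-NS nuclei held 12 of the 41 Slc7a10 UMIs, 13 of the 37 Car3 UMIs, 13 of the 69 C4b UMIs and 14 of the 44 Plin4 UMIs. Inside the cluster, MI-NS members had 0 UMIs of Slc7a10 and 1 of Car3. Adipocyte markers summed to 812 CPM in MI-NS members outside the cluster, and 43 and 31 CPM in MI-DAPA and Sham-NS members outside it; inside it the sums were 0, 31 and 22 CPM in MI-DAPA, MI-NS and Sham-NS. Of the 6 adipocyte markers, 5, 1 and 5 were at 0 in MI-DAPA, MI-NS and Sham-NS members outside the cluster, and their part in these ratios was not tested. A cluster led by Adrb3, Pck1 and Lgals12 held 6 MI-NS members, and 87 of its 90 nuclei were from MI-NS.

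Circadian clock genes were lower in MI-NS, with 5 of 9 measurable genes at least 2-fold lower and 2 at least 2-fold higher, and a median log2 ratio of -1.35. In capillary nuclei the same list had a median of -2.06. When in the day tissue was taken is not in the labels, and its part was not tested. Per2, a repressor of the clock loop, had 3, 11 and 145 UMIs in MI-DAPA, MI-NS and Sham-NS members, or 34.8, 64.7 and 436 CPM. Both infarction libraries lay far below Sham-NS, with a log2 ratio of -2.69 (-3.79 to -1.87) for MI-NS. Per3 and Tef, clock genes outside the naming rule, had 88.2 and 147 CPM in MI-NS against 436 and 712 CPM in Sham-NS. Clock, an activator of the loop, and Nr1d1, the repressor REV-ERB alpha, ran the other way, with log2 ratios of 1.31 (0.37 to 2.30) and 1.28 (0.47 to 2.13). Inside the Nrg1-led cluster the median was 0.05 over the same 9 genes and -1.65 over those with at least 30 UMIs there: Dbp and Nr1d2 had log2 ratios of 0.17 and 0.05, and Per2 had -1.91 (-3.52 to -0.79).

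Per1 (chr11:69095217-69109960, plus strand, GRCm38), which belongs both to the clock and to the glucocorticoid targets, had 92.7, 76.4 and 201 CPM in MI-DAPA, MI-NS and Sham-NS members. The log2 ratio was -1.35 (-2.38 to -0.53) for MI-NS against Sham-NS. Its promoter window is shown because clock factors are known to bind E-boxes, whose letters CACGTG are in capitals. The window is the upstream one of 2 in the RefSeq table, chr11:69098699-69098998 on the plus strand of GRCm38.p6.
Per1: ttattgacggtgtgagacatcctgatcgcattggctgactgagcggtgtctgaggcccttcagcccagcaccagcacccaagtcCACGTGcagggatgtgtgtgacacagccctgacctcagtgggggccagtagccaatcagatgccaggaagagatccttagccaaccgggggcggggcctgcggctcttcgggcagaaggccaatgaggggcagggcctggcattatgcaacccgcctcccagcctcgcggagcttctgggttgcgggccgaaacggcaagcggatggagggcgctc
CACGTG reads the same on both strands and begins at base 85 of the window. It is found in 7.15% of all 32851 windows, and the letters are not in the second Per1 window.

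Glucocorticoid targets were lower too, with 6 of 11 measurable genes at least 2-fold lower, 0 at least 2-fold higher and a median of -1.31, against -0.83 in capillary nuclei. In members inside the Nrg1-led cluster the median of the same genes was -1.27. Map3k6, a stress-activated kinase, had 9, 2 and 48 UMIs in MI-DAPA, MI-NS and Sham-NS members, or 104, 11.8 and 144 CPM, and a log2 ratio of -3.31 (-6.70 to -1.68) for MI-NS against Sham-NS. Inside the cluster it had 6, 0 and 17 UMIs. MI-NS was the low library, and the interval of MI-DAPA against Sham-NS spanned 0, at -0.40 (-1.68 to 0.58). Klf9, a transcription factor, had 4, 5 and 49 UMIs and a log2 ratio of -2.20. Sult1a1, a sulfotransferase, had 6, 10 and 79 UMIs and a log2 ratio of -1.95 (-3.13 to -1.06). For Klf9 and Sult1a1 both infarction libraries were low.

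Genes of transport and prostaglandin synthesis were among the lowest in MI-NS members. Slco1a4, an organic anion transporter, had 8, 1 and 38 UMIs in MI-DAPA, MI-NS and Sham-NS, a log2 ratio of -3.71 (-9.62 to -1.71) for MI-NS against Sham-NS, and -3.24 (-9.15 to -1.22) in members inside the Nrg1-led cluster. It had at most 2.62 CPM in capillary nuclei of any library. Ptgs1, the constitutive cyclooxygenase that starts prostaglandin synthesis, had 24, 13 and 126 UMIs, or 278, 76.4 and 378 CPM, and a log2 ratio of -2.26 (-3.26 to -1.48), and -2.14 (-3.48 to -1.17) inside the cluster. Rdx, the membrane-to-actin linker radixin, had 290, 99.9 and 505 CPM, a log2 ratio of -2.30 (-3.15 to -1.61), and -2.04 (-3.21 to -1.15) inside the cluster. Cdkn1c, a cell cycle inhibitor, had 2, 3 and 39 UMIs, and Selenbp1 had 10, 4 and 49 UMIs. Gbp5, an interferon-induced GTPase, had 6, 3 and 39 UMIs.

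Mechanosensitive, activation and immediate early genes lay on both sides. Shear-responsive genes had a median of -0.37 over 14 of 21 in MI-NS against Sham-NS, with Edn1 at least 2-fold higher and Ptgs1 at least 2-fold lower. Klf2, a transcription factor induced by laminar flow, had 220, 123 and 171 CPM in MI-DAPA, MI-NS and Sham-NS members, a log2 ratio of -0.45 (-1.27 to 0.27). Nos3, the endothelial nitric oxide synthase, had 544, 323 and 454 CPM, a log2 ratio of -0.48 (-0.96 to -0.03). Vcam1, an adhesion molecule for leukocytes, had 162, 99.9 and 189 CPM, a log2 ratio of -0.89 (-1.79 to -0.13). Among immediate early and heat shock genes, Nr4a1, an orphan nuclear receptor, had 1, 26 and 9 UMIs and a log2 ratio of 2.45 (1.36 to 3.78), while Jun had 13, 13 and 75 UMIs and a log2 ratio of -1.51 (-2.53 to -0.70).

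**Figure D3:**
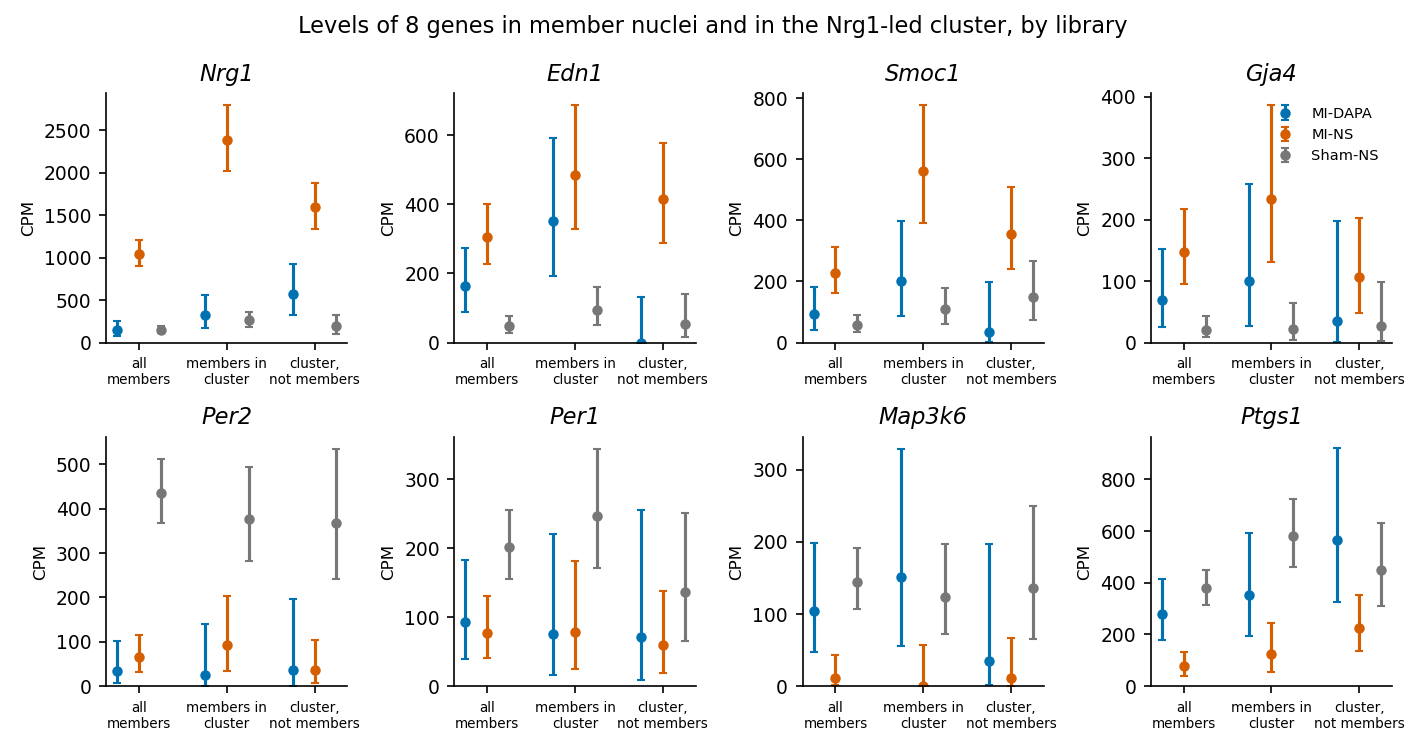
CPM of 8 genes, with exact 95% Poisson intervals for counting error, in MI-DAPA, MI-NS and Sham-NS, for all members, members in the Nrg1-led cluster and nuclei of that cluster that were not members. Nrg1 is highest in MI-NS in all 3 sets, at 1046, 2385 and 1589 CPM, and Per2 is highest in Sham-NS, at 436, 377 and 368 CPM.

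Of the genes at least 2-fold different, those measurable inside the Nrg1-led cluster mostly kept their side. Of 225 genes at least 2-fold higher in MI-NS members, 41 had at least 30 UMIs in members inside the cluster, and 40 of the 41 were at least 2-fold higher there. Of 204 at least 2-fold lower, 86 were measurable there and 67 were at least 2-fold lower. These nuclei are a subset of the members, so this is not independent evidence. Over all genes measurable in members inside the cluster, 6.58% were at least 2-fold higher and 11.1% at least 2-fold lower. In capillary nuclei 201 of the 225 and 183 of the 204 were measurable. Of all 225 and 204, with no minimum count in capillary nuclei, 84 and 67 were at least 2-fold different there on the same side. The same share over all genes was not taken in capillary nuclei.

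Dapagliflozin was compared with NS in the infarction libraries over 1777 genes. In MI-DAPA members 77 genes were at least 2-fold higher than in MI-NS members (4.33%) and 100 were at least 2-fold lower (5.63%), 9.96% in either direction. The MI-NS library serves in both comparisons, so the 2 sets of ratios are not independent and each is given on its own.

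In members inside the Nrg1-led cluster, 8.96% of 491 genes were at least 2-fold higher in MI-DAPA and 5.5% at least 2-fold lower. Endocardial genes outside the rule had a median of 0.28 for MI-DAPA against MI-NS over 12 measurable genes in all members, with 1 at least 2-fold higher (Pkhd1l1) and 3 at least 2-fold lower (Nrg1, Mecom and Smoc1). The median of the same genes was -0.10 inside the cluster and -0.78 in capillary nuclei. The capillary value rests in part on few UMIs. Capillary nuclei of MI-DAPA and MI-NS had 0 and 3 of Nrg1, 0 and 1 of Smoc1, 2 and 9 of Plvap, and 0 and 13 of Cdh11. Among genes found in at least 8 member nuclei of the higher library and at or above the level of other kept nuclei, Nrg1 was 1 of the 8 lowest, with a log2 ratio of -2.75 (-3.73 to -1.99) for MI-DAPA against MI-NS. Inside the Nrg1-led cluster, members had -2.81 (-3.81 to -2.05) and the other nuclei had -1.45 (-2.34 to -0.74). Smoc1 had a log2 ratio of -1.24 (-2.62 to -0.19). Edn1 had -0.88 (-1.88 to -0.04), and its direction turned with the rule, to 1.74 when a UMI of Npr3 was required and 1.47 with Cgnl1 left out. Nuak1, Bmp4 and Nr4a1 had fewer than 30 UMIs over both infarction libraries and were not among the 1777 genes. Nuak1 and Bmp4 had 0 UMIs in MI-DAPA members, at least 4.91-fold and 4.40-fold lower than in MI-NS with a floor of 3 counts per library. Mecom had 209 CPM in MI-DAPA and 611 CPM in MI-NS, a log2 ratio of -1.52 (-2.36 to -0.82). It was not particular to members. Arterial nuclei, chosen by Gja4, Sox17 and other arterial genes, had 698 CPM of Mecom in MI-DAPA and 946 CPM in MI-NS. Capillary nuclei had 449 and 524 CPM. Nr4a1 had 1 UMI in MI-DAPA and 26 in MI-NS, a log2 ratio of -3.16 (-9.08 to -1.12). Zeb2, a transcription factor of mesenchymal transition, had 162 CPM and 517 CPM, a log2 ratio of -1.63 (-2.60 to -0.85), and -0.56 (-2.28 to 0.82) in members inside the cluster.

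Fn1 and Fstl1, a secreted glycoprotein, were also among the lowest in MI-DAPA against MI-NS, with log2 ratios of -2.78 (-4.22 to -1.78) and -2.66 (-5.20 to -1.22). Matrix genes as a list had a median of -0.31 over 19 measurable genes, with 3 at least 2-fold lower and 0 at least 2-fold higher; all genes had a median of 0.06. Members of the list differed: Eln had a log2 ratio of -0.83 (-1.30 to -0.39), Col4a1 had 0.30 (-0.27 to 0.84), and Hmcn1 had 0.89 (0.65 to 1.13). Slc7a10, Car3, C4b and Plin4 made up the rest of the lowest genes with Slc25a28, a mitochondrial iron transporter. C4b had 2 UMIs in MI-DAPA and 69 in MI-NS, and Plin4 had 2 and 44, log2 ratios of -3.82 (-7.20 to -2.22) and -3.18 (-6.57 to -1.54). Inside the Nrg1-led cluster these 2 genes had at most 2 UMIs in either library. B2m, the light chain of MHC class I, had 5 UMIs in MI-DAPA and 48 in MI-NS, a log2 ratio of -2.16 (-3.97 to -0.96).

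Higher in MI-DAPA than in MI-NS were Ptgs1 and genes of signalling and scaffolding. Ptgs1 had a log2 ratio of 1.84 (0.83 to 2.96), and 1.46 (0.15 to 2.96) in members inside the Nrg1-led cluster. Nuclei of the cluster that were not members had 567 CPM in MI-DAPA and 225 CPM in MI-NS, a log2 ratio of 1.34 (0.27 to 2.37). Appl1, an endosomal adaptor of adiponectin and insulin signalling, had 20 UMIs in MI-DAPA and 10 in MI-NS, a log2 ratio of 1.94 (0.82 to 3.24). Magi3, a scaffold of cell junctions, had 27 and 16 UMIs, a log2 ratio of 1.72 (0.79 to 2.72). Akap8 (1.67), the kinase Gsk3b (1.62), the motor Myo1c (1.58), the purine enzyme Adss (1.54) and the cohesin subunit Smc3 (1.54) completed the 8 highest log2 ratios among genes found in at least 8 member nuclei of MI-DAPA and at or above the level of other kept nuclei. Mki67, in 3 nuclei, stood above them at 3.25. Akap8 also stood at 476 CPM in MI-DAPA capillary nuclei against 191 CPM in MI-NS capillary nuclei.

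Several endothelial genes lay higher in MI-DAPA by about 2-fold or less. Hmcn1 had 3186 CPM against 1717 CPM in MI-NS, and 5773 against 3975 CPM inside the Nrg1-led cluster. Eng, a coreceptor for TGF-beta family ligands, had 1101 CPM against 664 CPM, a log2 ratio of 0.73 (0.32 to 1.13). Nos3 had a log2 ratio of 0.75 (0.16 to 1.34), which turned to -0.73 with Cgnl1 left out of the rule, and Pkhd1l1 had 1.01 (0.34 to 1.69). Shear-responsive genes had a median of 0.42, with 9 of 11 higher and 2 at least 2-fold higher (Ptgs1 and Hes1), against 0.11 in capillary nuclei. Pan-endothelial genes had a median of 0.37, with 11 of 16 higher, against 0.41 in capillary nuclei. Of the 16, 0 were at least 2-fold higher and 2 at least 2-fold lower, Cyyr1 (-1.15) and Sox17 (-1.05). With Cgnl1 left out the pan-endothelial median turned to -0.49. Paracrine signals had a median of -0.43, with 7 of 9 lower, against 0.11 in capillary nuclei. Over all 1777 genes measured in members, 959 were higher and 818 lower in MI-DAPA.

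Mitochondrially encoded transcripts differed between libraries in both sets of endothelial nuclei. Each of 12 measurable ones was lower in MI-NS than in Sham-NS members, with a median log2 ratio of -1.12, and -1.30 in members inside the Nrg1-led cluster, against -1.07 in capillary nuclei. Each of 11 was higher in MI-DAPA than in MI-NS members, with a median of 0.93, and 1.07 inside the cluster, against 0.64 in capillary nuclei. The mitochondrial share of UMIs given above followed the same order of libraries, and its part in the other differences was not tested.

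**Figure D4:**
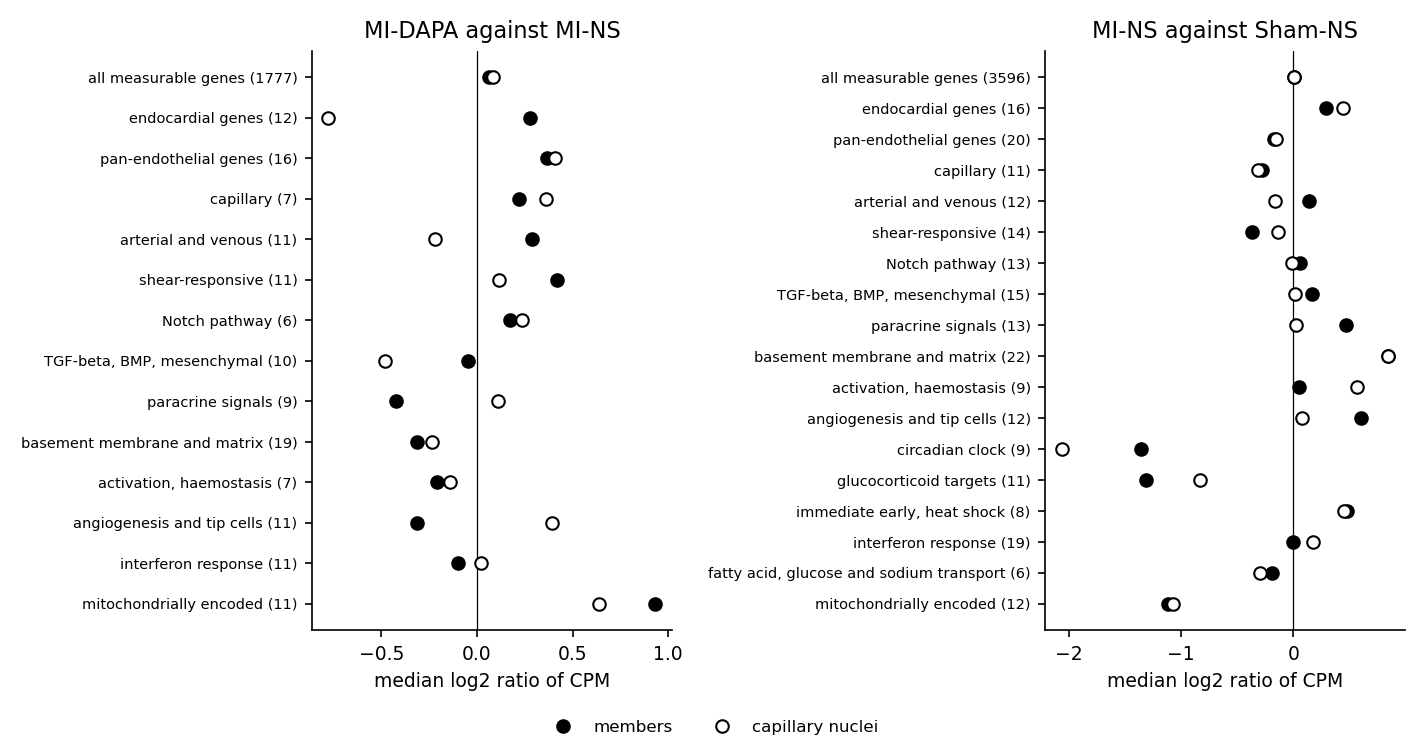
Median log2 ratio of CPM for gene lists with at least 5 measurable genes (number in brackets), in members (filled) and capillary nuclei (open), for MI-DAPA against MI-NS (left) and MI-NS against Sham-NS (right). In MI-NS against Sham-NS the matrix list lies at 0.85 in both sets of nuclei and the clock list at -1.35 in members and -2.06 in capillary nuclei.

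Natriuretic peptide receptors and the transporters that dapagliflozin bears on were read whatever their level. Npr1, the receptor for ANP and BNP that makes cyclic GMP, had 209, 282 and 279 CPM in MI-DAPA, MI-NS and Sham-NS members. Npr2, the receptor for CNP, had 301, 165 and 243 CPM. The clearance receptor Npr3 (chr15:11839896-11907287, minus strand, GRCm38), part of the rule, had 417, 247 and 550 CPM. Nppa and Nppb, which encode ANP and BNP, had 0, 15 and 0 UMIs and 1, 10 and 1 UMIs; capillary nuclei had 80.0, 165 and 2.62 CPM of Nppa, so the members lay no higher than another endothelial set. Slc5a2 (SGLT2) and Slc5a1 (SGLT1) had 0 UMIs in the 508 members. For nuclei sampled in the same way and at the same depth, 0 of 508 allows a share with a UMI of up to 0.591%, which limits nuclei with a UMI and not nuclei that express the gene. Nlrp3, the inflammasome sensor, had 0, 2 and 0 UMIs.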

How the data were processed

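The authors deposited 1 matrix of raw UMI counts per library, made with Cell Ranger 6.0.1 per the file headers; mm10 and Seurat are named in the submitters' processing notes, without a stated role. Whether intronic reads were counted is not given in the sources used here. Columns other than these counts were not used for values.

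The 3 matrices held 32285 genes. Counts of member nuclei were summed per library and divided by the summed UMIs of those nuclei, as CPM. A gene was compared between 2 libraries with at least 30 UMIs over both, and called at 2-fold. List medians in capillary nuclei used the genes measurable in members, with no minimum count in capillary nuclei. Log2 ratios had 0.5 UMIs added to each sum. Intervals are 95% exact conditional binomial (ratios), exact Poisson (levels), Clopper-Pearson (shares) and log-normal approximation (ratios of shares), all for counting error only, since each group was 1 library. Floors were 3 counts per library.

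All kept nuclei were clustered by Leiden (scanpy 1.11.5, leidenalg 0.10.2, resolution 1, 30 components, 15 neighbours, 2000 variable genes) without the rule genes. Scrublet marked 2, 1 and 0 nuclei of MI-DAPA, MI-NS and Sham-NS, too few to have worked, and none was removed. Python 3.11.15, scipy 1.17.1, R 4.3.3 and edgeR 4.0.16 (for the TMM scaling alternative only) were used. The ratio step was tested on simulated sums with counting error only, so that test does not cover spread between nuclei or libraries.

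Named genes were the 8 highest and 8 lowest ratios among genes found in at least 8 member nuclei of the higher library and at or above the level of other kept nuclei, up to 4 per list, the first 15 against capillary nuclei and fixed genes; Per3, Tef, Dbp, Hapln1 and cluster-leading genes were named after their values were seen. The members and the gene lists were chosen with earlier results of these data known. Sequences are RefSeq windows on GRCm38.p6, and gene positions are from GENCODE on GRCm38.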

Additional observations from a re-analysis of the deposited data

Results flagged for a closer look

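For a pair of genes, members and capillary nuclei differed in opposite directions under the same comparison, with intervals that did not span 0 in either set. The difference between the sets was not tested. Sox17, a transcription factor of arterial endothelium, had a log2 ratio of 1.20 (0.33 to 2.10) in MI-NS against Sham-NS members and of -1.05 (-1.63 to -0.52) in capillary nuclei. Inside the Nrg1-led cluster MI-NS members held 3 Sox17 UMIs and Sham-NS members 5, so most Sox17 UMIs of members lay outside it. Ptgs1 had a log2 ratio of 1.84 (0.83 to 2.96) in MI-DAPA against MI-NS members and of -1.66 (-3.16 to -0.53) in capillary nuclei, where its levels were 31.1 and 104 CPM.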

How the results depend on the processing

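No paired analysis was possible because each group was 1 library, and leaving out a replicate was likewise not possible. Members with at least 3 UMIs, or with Npr3 required, gave log2 share ratios for MI-NS against Sham-NS of -1.33 and -1.87; leaving out Cgnl1 gave -1.24, and -0.74 for MI-DAPA against MI-NS. All nuclei of the Nrg1-led cluster gave -0.60. Over 12 alternatives the ratio ranged from -1.87 to -0.60 for MI-NS against Sham-NS and from -0.74 to 0.20 for MI-DAPA against MI-NS. In every case named here the cause was not tested unless the alternative itself leaves fewer nuclei or genes.

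Counts of genes at least 2-fold higher and lower in MI-NS than in Sham-NS were 33 and 84 without Cgnl1, 57 and 130 with Npr3, 632 and 389 at 15 UMIs, 56 and 98 at 60 UMIs, 3018 and 1431 with no filter, and 63 and 117 thinned to 500 UMIs. Higher counts were 141 with at least 3 UMIs, 84 in members inside the cluster and 102 outside it. For MI-DAPA against MI-NS they were 15 and 13, 24 and 13, 208 and 372, 18 and 28, 1698 and 2558, and 36 and 26 under the same settings in that order; 44 and 27 inside the cluster. Lower counts were 41 with at least 3 UMIs and 53 outside the cluster.

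List medians in MI-NS against Sham-NS moved to 0.95 for transport without Cgnl1. With Npr3 they were 0.75 for capillary, -0.87 for arterial and venous, -2.61 for glucocorticoid, 2.29 for immediate early and 0.71 for transport genes. Immediate early genes had -1.28 at 60 UMIs, -1.73 thinned, -1.74 inside the cluster, and -1.04 outside it; clock genes had -0.47 with no filter. Angiogenesis turned to -0.31 inside the cluster and -0.080 over all its nuclei. In MI-DAPA against MI-NS, leaving out Cgnl1 gave -0.49 for pan-endothelial, 1.34 for TGF-beta and -2.16 for paracrine genes, cell cycle had 1.92 at 15 UMIs and 1.55 with no filter, and immediate early genes had -2.44 over all cluster nuclei.

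Among single genes whose reported interval did not span 0, those that turned were, for MI-DAPA against MI-NS, Nos3 (-0.73), Edn1 (1.47) and Flt1 (-0.46) without Cgnl1, Robo4 (-1.19) and Edn1 (1.74) with Npr3, Btnl9 (0.39 inside the cluster, 0.36 over all its nuclei) and Robo4 (-0.25 over all its nuclei). For MI-NS against Sham-NS they were Ifi203 (-0.075) with Npr3, Plin4 (-0.28) and Sox17 (-0.56) over all cluster nuclei, and Bmp4 (-0.18) outside the cluster. Some genes whose reported interval did span 0 changed sign as well, among them Ece1, Klf2 and Dusp1 for MI-DAPA against MI-NS and Pdgfb, Fli1 and Adam17 for MI-NS against Sham-NS. The cluster settings were chosen after seeing the data. Requiring 0 UMIs of other cell types, a muscle share under 1%, 500 genes with 5% mitochondrial UMIs, and leaving out nuclei over 4000 UMIs or the top 10% of doublet scores moved no count of genes, share or list median by over 1.5 times or out of its counting interval, and TMM scaling, which does not act on shares, moved no count or list median. Applying the rule to thinned counts was run for the 2 share ratios only, which stayed within their intervals. With 86320 UMIs over the MI-DAPA members, a gene at 0 there may stand at up to 34.8 CPM.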

Other observations

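Proliferation genes were nearly absent from members. None of the 29 cell cycle genes was measurable in MI-NS against Sham-NS, and only Mki67, a marker of cycling cells, was in MI-DAPA against MI-NS. Mki67 had 26, 5 and 1 UMIs in MI-DAPA, MI-NS and Sham-NS members, from 3, 2 and 1 nuclei; the gene was singled out after its values were seen.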
